A study of Homo sapiens with 21 samples.

Results

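Binding of estrogen receptor beta (ER-beta) was compared between estradiol, the natural ligand, and LY500307, an ER-beta-selective agonist, in MDA-MB-231 cells. This triple-negative breast cancer line carried a doxycycline-inducible Flag-tagged ER-beta, so the receptor was expressed from a transgene and was precipitated with the Flag M2 antibody. All groups received doxycycline (100 ng/ml, 24 h) and then ethanol vehicle, estradiol at 1 nM or LY500307 for 3 h. The titles give LY500307 as 1 nM, while the treatment labels give 10 nM, so the dose is uncertain and values for the ligands are set side by side without a claim about matched doses. Each treatment had 4 ChIP and 3 input libraries, 21 in all, while the treatment protocol mentions triplicates. The authors deposited 1 list of enriched regions per treatment, so there is no replicate error and no test for any difference between ligands.

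The members compared were 26861 estradiol regions and 10045 LY500307 regions on chromosomes 1 to 22 and X, 36906 in all. Before this limit to chromosomes, all 3 deposited lists together held 39866 regions. The ethanol list held 2902 regions on these chromosomes and is used only to mark sites that were also called without ligand. Shares below carry 95% Wilson intervals, which cover counting error only, because neighbouring regions and pooled reads are not independent experiments. The number of reads behind each list is unknown, and depth by itself can change the length of a list. Whether it did so here was not tested. A cell line's region lists hold no expression values, so the cell type could not be checked against marker genes.

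ER-beta is a ligand-activated transcription factor of the nuclear receptor family. It binds DNA as a dimer at the estrogen response element (ERE), an inverted repeat of a short motif, and can also be held at DNA through other factors such as AP-1 (FOS and JUN proteins). In breast tumour cells it is studied mostly for effects on growth that differ from those of ER-alpha. The rank comparison asks whether the selective agonist places the receptor at the same sites, in the same order of strength, as the natural ligand.

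The sequences below show what stood at the summits of a site that the lists ranked alike and of sites that each list ranked higher. Each is 81 bases, centred on the ERE nearest the estradiol summit where there is one and otherwise on the summit, 5′ to 3′ on the forward strand of hg38. Capitals mark EREs, searched as GGTCANNNTGACC and allowing 1 mismatch among the 10 fixed positions, and AP-1 elements, searched as TGAGTCA. Both were searched on both strands. The SMAD7 site was among the strongest in both lists, the COL3A1 and SLC38A2 sites ranked higher with estradiol, and the last 3 ranked higher with LY500307.
SMAD7 (chr18:48990997-48991077): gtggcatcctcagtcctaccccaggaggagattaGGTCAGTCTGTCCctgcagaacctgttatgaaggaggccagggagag
COL3A1 (chr2:188850965-188851045): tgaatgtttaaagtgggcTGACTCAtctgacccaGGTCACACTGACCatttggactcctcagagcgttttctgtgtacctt
SLC38A2 (chr12:46471136-46471216): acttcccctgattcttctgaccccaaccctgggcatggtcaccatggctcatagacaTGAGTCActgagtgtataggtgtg
HDAC7 (chr12:47793411-47793491): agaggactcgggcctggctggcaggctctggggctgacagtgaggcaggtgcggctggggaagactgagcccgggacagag
NDUFC1 (chr4:139315007-139315087): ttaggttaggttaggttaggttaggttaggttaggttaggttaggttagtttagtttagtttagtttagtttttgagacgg
TGFA (chr2:70435051-70435131): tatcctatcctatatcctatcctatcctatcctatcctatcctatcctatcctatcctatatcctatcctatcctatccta
The COL3A1 window holds an AP-1 element on the reverse strand and an ERE that matches at all 10 fixed positions, while the ERE at SMAD7 has 1 mismatch. The 3 windows that ranked higher with LY500307 hold no capitals, and those at NDUFC1 and TGFA are short repeats run in tandem. Genes name the nearest protein-coding start of transcription in GENCODE 44 and are not shown to be regulated from the site.

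Nearly every LY500307 region was also an estradiol region, whereas most estradiol regions were not LY500307 regions. By at least 1 bp of overlap, 9230 of 10045 LY500307 regions (91.9%, 91.3 to 92.4) met an estradiol region. In the other direction, 9082 of 26861 estradiol regions (33.8%, 33.2 to 34.4) met an LY500307 region. The 815 LY500307 regions without an estradiol partner made up 8.11% of that list. The shared sites were also centred alike, since 7607 of the 9045 mutual pairs (84.1%) had summits within 50 bp of each other. A mutual pair joins each LY500307 region with the estradiol region it overlaps most, where the choice holds both ways. This left 37 shared estradiol and 185 shared LY500307 regions outside a pair.

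Strength was read from the authors' fold, the ratio of ChIP pileup to local background at the summit with 1 added to each. The estradiol fold was the higher in 8557 of the 9045 pairs (94.6%), and the LY500307 fold in 488 (5.395%). The median fold of the pairs was 27.9 with estradiol and 9.24 with LY500307, and the median ratio of the LY500307 to the estradiol fold was 0.386, with 0.200 and 1.02 as its 5th and 95th percentiles. Because the pools may differ in depth, these levels say little about the ligands, and the comparison rests on ranks. Both members of a pair were ranked by fold among the 9045 pairs, so that a rank percentile of 100 is the strongest site in either list.

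The ranks ran broadly together. Spearman's rho across pairs was 0.843 (n = 9045), a description without a p, since all points come from the same 2 pools and share their local genome sequence. The median gap between a pair's rank percentiles was 8.32 points, and 5101 pairs (56.4%) lay less than 10 points apart. Agreement was closest among the strongest sites. Of the pairs in the highest estradiol rank decile, with estradiol folds of 85.9 to 196.5, 78.2% were also in the highest LY500307 decile, and 0.442% were 25 points or more apart. In the sixth decile from the bottom, with estradiol folds of 27.9 to 34.5, 20.6% shared a decile and 18.2% were that far apart. Ranks are bounded, so pairs in the highest or lowest decile can differ that far in 1 direction only. In the lowest decile 38.3% shared a decile and 18.3% were that far apart. The highest 1000 pairs of the rankings had 793 in common, the highest 100 had 56, and the highest 10 had 2.

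**Figure D1:**
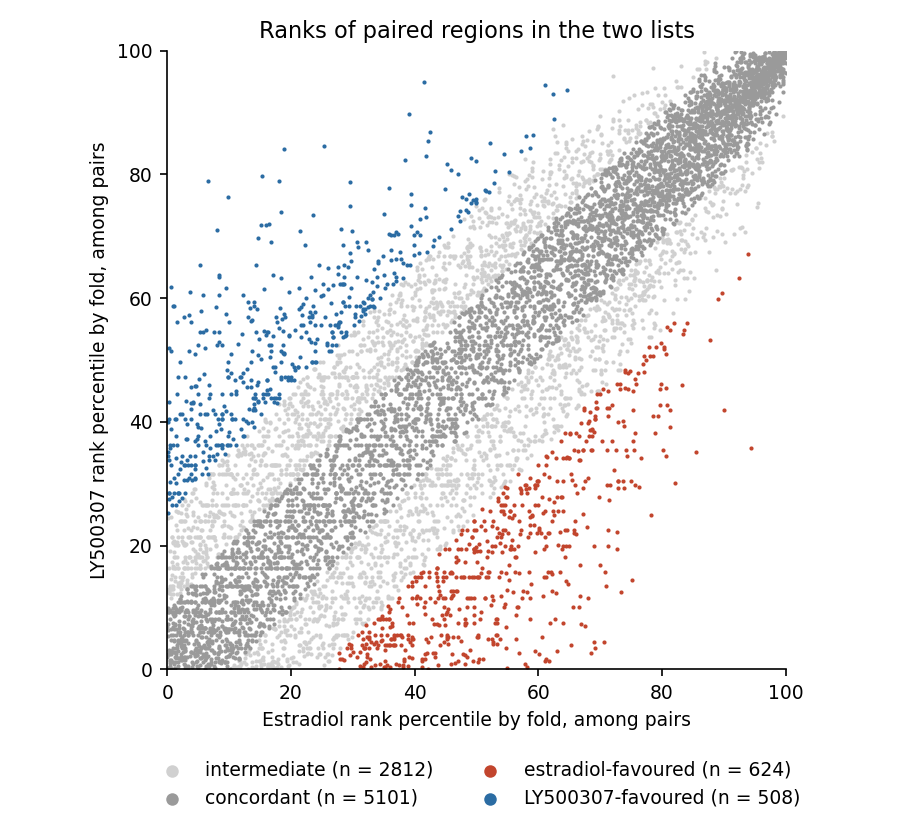
Rank percentile by fold of each of the 9045 paired regions in the estradiol list (horizontal axis) and the LY500307 list (vertical axis), where 100 is the strongest. Points follow the diagonal most tightly at the upper right, and the 624 estradiol-favoured (red) and 508 LY500307-favoured (blue) pairs lie mainly at low and middle ranks.

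The 5 sites with the highest mean rank were near ADAMTSL5, KRT80, PTMA, NTNG2 and SMAD7. The site at the promoter of PTMA, which encodes the nuclear protein prothymosin alpha, had an estradiol fold of 183.5 and an LY500307 fold of 123.5. The site 40.1 kb from SMAD7, the inhibitory SMAD of TGF-beta signalling, had 176.9 and 126.8. ADAMTSL5, a secreted ADAMTS-like protein, had a promoter site at 196.5 and 135.2 with a 1-mismatch ERE, and KRT80, an epithelial keratin, had an intergenic site at 186.5 and 121.4. The site near NTNG2, a netrin-family guidance protein, had 175.2 and 142.6, the highest fold in the LY500307 list. All 5 were also in the vehicle list, at folds of 27.6 to 69.7.

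The fold and the deposited −log10 p of a region together fix a whole-number pileup, the count of overlapping fragments at the summit, and this was recovered for 26844 estradiol and all 10045 LY500307 regions. The highest pileup was 400 in both lists. The genome-wide background recovered alongside was 1.0001 fragments for estradiol and 1.3892 for LY500307, so the shorter list had the higher value. How this value relates to the read depth of the pools was not tested. The median ratio of LY500307 to estradiol pileup was 0.621 for pairs with under 50 estradiol fragments, 0.377 for those with 50 to 99 estradiol fragments, 0.448 for 200 to 249 and 0.738 for the 112 pairs with 350 to 400. Among pairs, the ligands' values by pileup thus lay closer together at both ends than between them. By fold they were closest in the weakest estradiol decile, with a median ratio of 0.981 against 0.396 in the strongest. Only sites called with both ligands form pairs, and the lowest LY500307 pileup was 10. Of estradiol regions with 10 to 20 fragments, 9.19% were in the LY500307 list. Weak estradiol sites that were not called with LY500307 have no ratio here. All 112 pairs with the highest pileups also overlapped a vehicle region, against 18.4% of pairs with under 50 fragments and 6.07% with 50 to 99. The parts that a pileup limit and the need for a call with both ligands have in this pattern were not tested.

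Rank gaps of at least 25 percentile points defined the discordant sites, 1132 pairs (12.5%). Of all pairs, 624 (6.90%) were estradiol-favoured, ranking higher with estradiol, and 508 (5.62%) were LY500307-favoured. As estradiol minus LY500307, gaps ran from -72.3 to 66.3 points. Across all pairs the LY500307 pileup had a lower quartile of 18 fragments and a median of 26. An LY500307 pileup of 18, as at FERMT3, had a counting interval of 10.7 to 28.4, at the confidence level of the shares. At low ranks, counting error in a single LY500307 value can thus span 25 points by pileup. How many discordant pairs lie within such error was not tested. The limit cuts a continuous range. The 5 estradiol-favoured pairs just inside it differed by 25.01 to 25.11 points and the 5 just outside by 24.78 to 24.93, and in the other direction these ranges were 25.00 to 25.09 and 24.95 to 24.98. Folds, ranks and pileups of the classes are descriptions, since the classes were cut from the fold, while sequence, position and overlap with the vehicle list were not used to choose them.

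In estradiol-favoured pairs the median fold was 30.4 with estradiol and 5.86 with LY500307. In LY500307-favoured pairs the medians were 11.1 and 9.89, so most of the latter were sites that were weak with estradiol and middling with LY500307, not sites where LY500307 gave more fragments. Median pileup was 71 with estradiol and 21 with LY500307 in the first class, and 31 and 25 in the second. Local background moved with the classes too. Its LY500307 median was 3.27 fragments in estradiol-favoured, 1.63 in concordant and 1.63 in LY500307-favoured pairs, while its estradiol median was 1.24, 1.24 and 1.86. The background at a site sits in the denominator of the fold, so a rank by fold moves with it.

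**Figure D2:**
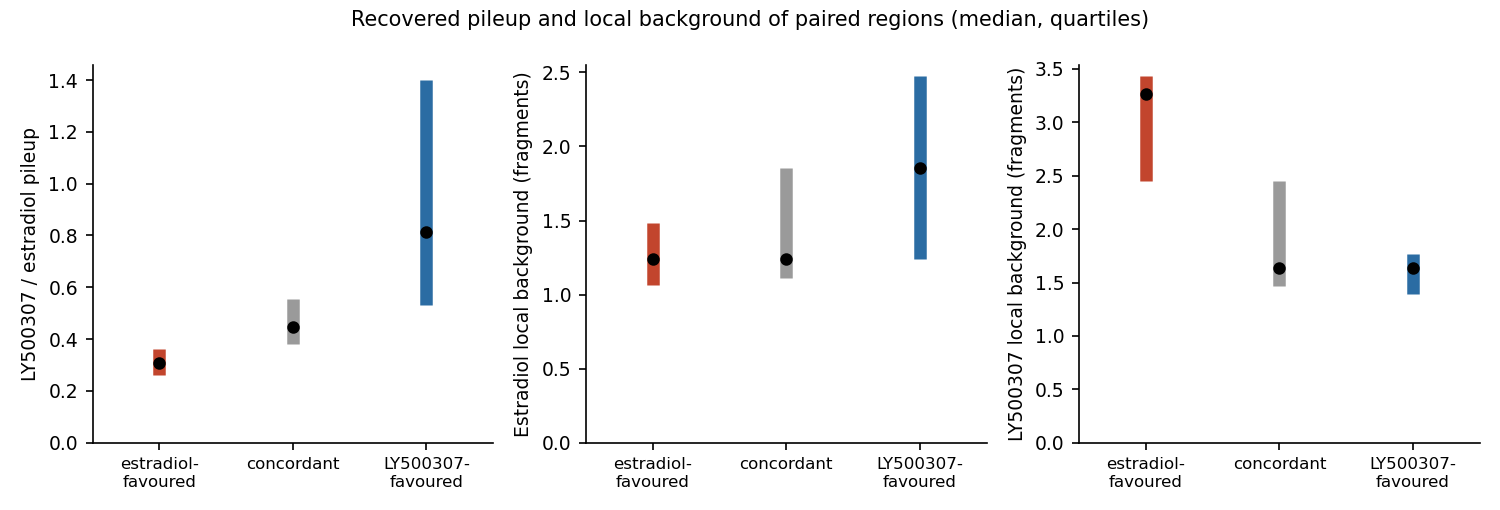
Ratio of LY500307 to estradiol pileup (left) and local background in fragments with estradiol (middle) and LY500307 (right) for 624 estradiol-favoured, 5101 concordant and 508 LY500307-favoured pairs; dots are medians and bars span the quartiles. The median pileup ratio is 0.310, 0.445 and 0.814 from left to right, and LY500307 background is highest, at 3.27 fragments, in estradiol-favoured pairs.

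A ranking by recovered pileup, which leaves the local background out, gave fewer discordant pairs, 239 estradiol-favoured and 298 LY500307-favoured, with a rho of 0.908. Of the pairs favoured by fold, 149 of 624 (23.9%) remained estradiol-favoured and 182 of 508 (35.8%) remained LY500307-favoured by pileup. A pair can also join summits that lie apart, which was the case by more than 200 bp in 9 of 624 estradiol-favoured, 21 of 508 LY500307-favoured and 157 of 5101 concordant pairs. Their values then come from different positions in 1 region.

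Estradiol-favoured sites more often held receptor elements at the summit. Within 100 bp on either side, an ERE was found in 141 of 624 estradiol-favoured pairs (22.6%, 19.5 to 26.0), 878 of 5101 concordant pairs (17.2%, 16.2 to 18.3) and 49 of 508 LY500307-favoured pairs (9.65%, 7.37 to 12.5). The difference between the discordant classes was 12.95 percentage points (95% interval 8.71 to 17.1). Windows of the same length 2000 bp downstream held an ERE in 1.12%, 0.686% and 0.787%, so each class stood above its flanking sequence. AGGTCA, a single arm of the ERE, followed the same order, at 59.5%, 50.3% and 27.6%, against 19.6%, 15.8% and 14.8% downstream. Some of these arms lie within EREs. AP-1 elements were at 18.1%, 15.4% and 9.45%, against 4.65%, 3.65% and 2.76% downstream.

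Of the LY500307-favoured pairs, 325 of 508 (63.98%) held none of these 3 elements, compared with 26.1% of estradiol-favoured and 37.8% of concordant pairs. Elements of other factors differed less in percentage points. The TEAD element GGAATG was in 20.2% of estradiol-favoured and 15.0% of LY500307-favoured pairs, against 12.3% and 12.0% downstream. The GATA element AGATAA was in 11.1% and 9.45%, close to the 10.9% and 10.2% found downstream. Rare in both classes were the SP1 element GGGGCGGGG, in 1.44% and 3.15%, and the FOXA element TGTTTAC, in 2.08% and 0.984%. Downstream these were in 0.641% and 0.394% for SP1 and 2.24% and 2.56% for FOXA. Concordant pairs held the SP1 element in 3.57%. A match is only a run of letters in the window.

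The order of shares was the same by pileup. An ERE was in 26.8% of 239 estradiol-favoured and 3.02% of 298 LY500307-favoured pairs, a single arm in 63.2% and 14.4%, and an AP-1 element in 15.9% and 3.69%. Because the classes differ in strength, the shares were also read within bands of mean rank. Between the 25th and 50th percentile of mean rank an ERE was in 25.8% of estradiol-favoured, 19.8% of concordant and 10.5% of LY500307-favoured pairs. Between the 50th and 75th the shares were 21.4%, 20.7% and 17.3%, much closer together. EREs without any mismatch were in 2.88% and 1.57% of the discordant classes, a difference of 1.31 points whose interval (-0.524 to 3.11) spans 0.

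Overlap with the vehicle list also differed between the classes. Of LY500307-favoured pairs, 193 of 508 (38.0%, 33.9 to 42.3) overlapped a region called without ligand, while 23 of 624 estradiol-favoured pairs did (3.69%, 2.47 to 5.47). Concordant pairs stood between them at 29.7%, and all pairs at 23.7%. Between the 25th and 50th percentile of mean rank the shares were 40.1%, 1.61% and, for concordant pairs, 4.31%, and between the 50th and 75th they were 22.2%, 11.1% and 11.4%. By the pileup ranking they were 64.8% of LY500307-favoured and 2.51% of estradiol-favoured pairs. The ERE share also split by this overlap. Among LY500307-favoured pairs, 7 of 193 that overlapped a vehicle region held an ERE (3.63%), compared with 42 of 315 that did not (13.3%). In concordant pairs the order was the other way round, with EREs in 21.4% of vehicle-overlapping and 15.4% of other pairs.

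**Figure D3:**
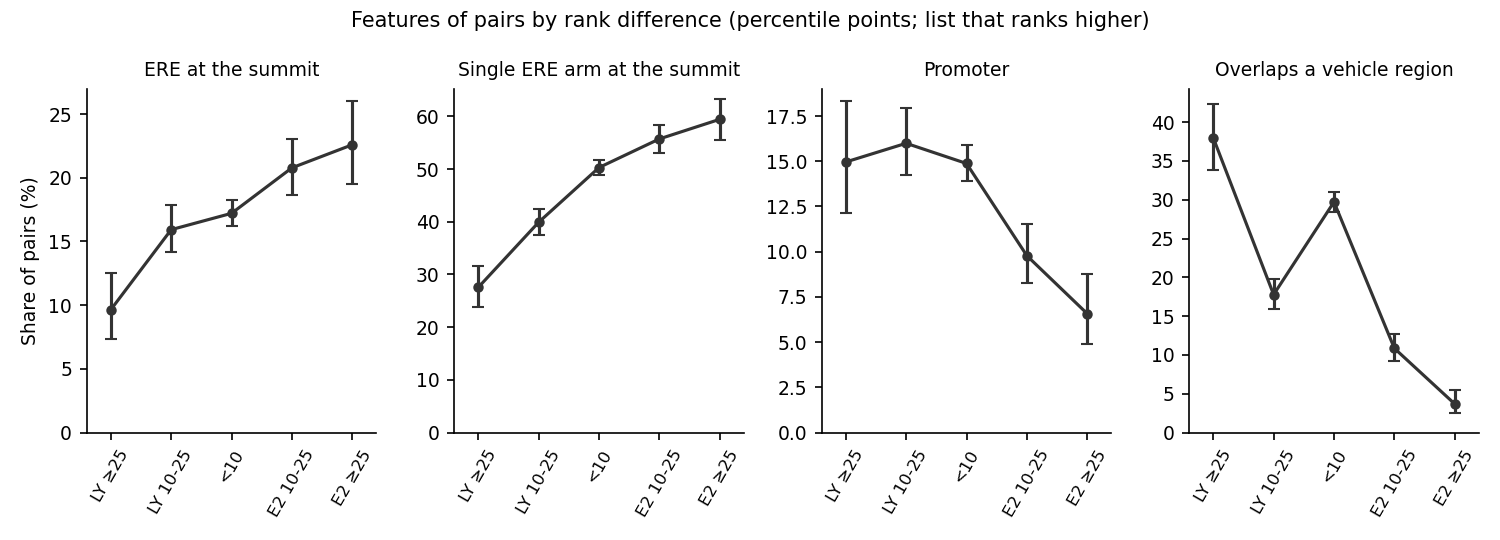
Share of pairs with an ERE, with a single ERE arm, at a promoter, and overlapping a vehicle region, by rank gap in percentile points, from LY500307 higher by 25 or more (left) to estradiol (E2) higher by 25 or more (right); bars are 95% Wilson intervals. ERE and single-arm shares climb from 9.65% to 22.6% and from 27.6% to 59.5%, while vehicle overlap is 38.0% at the left end and 3.69% at the right.

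The classes also lay at different distances from genes. A promoter, taken from 1000 bp before to 100 bp after the start of a protein-coding gene, held 41 of 624 estradiol-favoured pairs (6.57%, 4.88 to 8.79), 76 of 508 LY500307-favoured pairs (15.0%, 12.1 to 18.3) and 14.9% of concordant pairs. In the same order, promoter shares were 9.09%, 18.5% and 31.1% under the 25th percentile of mean rank. Between the 25th and 50th they were 5.91%, 14.1% and 11.2%, and between the 50th and 75th 5.13%, 12.3% and 9.57%. The median distance to a start was 20.6 kb, 12.0 kb and 13.1 kb. Estradiol-favoured sites were intergenic in 43.9% and intronic in 44.4%. LY500307-favoured sites were intergenic in 36.2% and intronic in 42.3%. Median GC content was 51.7% in estradiol-favoured, 52.7% in LY500307-favoured and 55.7% in concordant windows, so the discordant classes differed from each other by less than either did from concordant sites.

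Tandem repeats stood out among LY500307-favoured sites. A repeat was counted where at least 25 bases in the window ran on with a period of 2 to 6 bases, a measure chosen after the printed sequences were seen. It was found in 23 of 508 LY500307-favoured pairs (4.53%, 3.04 to 6.70), 1 of 624 estradiol-favoured pairs (0.160%) and 35 of 5101 concordant pairs (0.686%). Of the 23, 21 overlapped a vehicle region, which is 10.9% of the 193 LY500307-favoured pairs with such overlap. By the pileup ranking, 25 of 298 LY500307-favoured pairs (8.39%) held a repeat. The printed windows near NDUFC1 and TGFA are of this kind.

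The 10 estradiol-favoured pairs with the largest rank gap were strong with estradiol, at folds of 35.8 to 50.3, and near the bottom of the LY500307 list, at 4.07 to 5.78. The largest gap was in an intron of KCTD14 (chr11:78040738-78041233), where the fold was 44.2 with estradiol and 4.74 with LY500307. Its pileup was 98 and 27 fragments and its local background 1.24 and 4.90, so the pileup rank gap was 15.0 points where the fold rank gap was 66.3. The promoter region of FERMT3, which encodes the integrin activator kindlin-3, had folds of 50.3 and 5.78 and pileups of 124 and 18, but its summits lay 515 bp apart, so these values are not from 1 position. The 1-mismatch ERE ggtctaggtgacc stood at its estradiol summit. The site 98.4 kb from SLC38A2, an amino acid transporter gene, kept a gap of 48.8 points by pileup, with folds of 42.5 and 4.64, pileups of 84 and 15, and the AP-1 element printed above.

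The site near TGFBI, which encodes a matrix protein induced by TGF-beta, had folds of 42.4 and 4.74 and pileups of 94 and 27. The others lay near CACNA2D1, a calcium channel subunit, KRT85, a hair keratin, RIN2, a regulator of RAB5, TFAP2C, the AP-2 gamma transcription factor, RHOD, a small GTPase, and PLXNA4, a semaphorin receptor. Their folds were 35.8 to 47.8 with estradiol and 4.07 to 5.59 with LY500307. Of the 10, only the TFAP2C site overlapped a vehicle region, at a fold of 6.63. An ERE was in 1 of the 10, a single arm in 5 and an AP-1 element in 3. By pileup, 4 of the 10 kept a gap of 25 points or more, at CACNA2D1, SLC38A2, KRT85 and FERMT3, the last with its summits apart.

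Among estradiol-favoured pairs, the highest estradiol fold was in an intron of CTSZ (chr20:59005910-59007559), the lysosomal protease cathepsin Z. It was 106.1, beside 7.51 with LY500307 and 9.74 in the vehicle list. The pileup was 297 with estradiol and 28 with LY500307, but the LY500307 summit lay 1197 bp from the estradiol summit in the same wide region, so the values describe different positions. The COL3A1 site (chr2:188850716-188851273), 123.4 kb from the start of this fibrillar collagen gene, holds the perfect ERE printed above and had folds of 95.5 and 12.0 with pileups of 190 and 60. Its local background was 1.00 with estradiol and 4.085 with LY500307, and its rank gap was 29.1 points by fold but 6.52 by pileup. The sites at the ANXA11 promoter, in ECE1, the endothelin-converting enzyme, and nearest to MUTYH in an intron of TESK2, had estradiol folds of 84.9 to 103.2 and LY500307 folds of 8.06 to 13.05. Their pileup rank gaps were 4.61, 16.3 and 1.64 points.

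The 10 LY500307-favoured pairs with the largest rank gap looked different. All 10 overlapped a vehicle region, and none held an ERE, a single arm or an AP-1 element. HDAC7, a class IIa histone deacetylase, had 2 of them, both in coding exons. At chr12:47793365-47793570 the estradiol fold was 6.35, the LY500307 fold 18.8 and the vehicle fold 30.4, and the pileup was 14 and 44 with the ligands. At chr12:47795188-47795399 the folds were 7.50, 17.2 and 27.1, and the pileups 14 and 40, with the ligands' summits 289 bp apart. The vehicle fold was thus higher than either ligand's at both exons.

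In the order estradiol, LY500307 and vehicle, the CWF19L1 promoter had folds of 12.2, 23.2 and 22.5, and the SEMA5A intron, in a gene for a semaphorin, had 10.1, 19.3 and 9.83. Of another 5, 1 lay in an intron of TP53BP1, a DNA damage response gene. A second was nearest to NDUFC1, a complex I subunit gene, but lay in an intron of NAA15. The others were nearest to GLRA1, a glycine receptor gene (176.45 kb away), GFRA2, a GDNF-family receptor gene (699.34 kb), and VMA21, a V-ATPase assembly factor gene (59.558 kb). Folds at these 5 sites were 4.31 to 15.6 with estradiol, 10.9 to 24.04 with LY500307, and in the vehicle list 9.48 to 24.9. At all 10 sites LY500307 also ranked higher by pileup, with gaps of -43.99 to -66.8 points as estradiol minus LY500307.

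**Figure D4:**
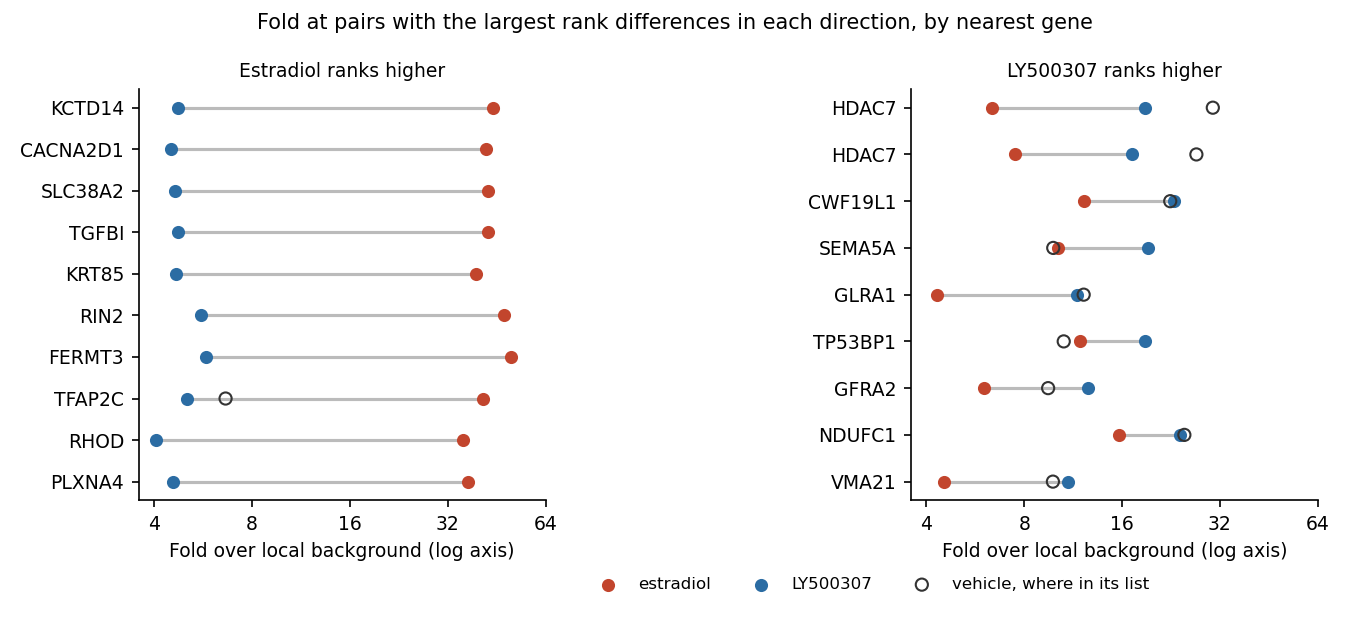
Fold over local background (log axis) at the 10 pairs with the largest rank gap in favour of estradiol (left) and at 9 of the 10 in favour of LY500307 (right), by nearest gene: estradiol in red, LY500307 in blue, and vehicle as open circles where its list had the site. On the left 1 site has a vehicle value (TFAP2C, 6.63); on the right all 9 do, and at both HDAC7 exons vehicle is the highest.

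Of LY500307-favoured pairs, the highest LY500307 fold was at the promoter of KRT36, a hair keratin gene (chr17:41490626-41491102). It was 46.5, beside 23.4 with estradiol and 39.3 in the vehicle list, with pileups of 110 and 66. The repeat site 30.6 kb from TGFA, an EGF receptor ligand gene, had 44.04, 35.3 and 35.6. With the same repeat unit, the site nearest to DDX18 (737.13 kb away) had 31.0, 22.3 and 24.7. The sites near ANXA8L1 and SPRY4, a feedback inhibitor of receptor kinase signalling, were not in the vehicle list and had LY500307 folds of 41.02 and 38.5 beside estradiol folds of 38.4 and 36.3. Their estradiol pileups were 204 and 170 against 97 and 91 with LY500307, and their pileup ranks differed by -1.37 and -4.98 points, beside estradiol backgrounds of 4.34 and 3.72 fragments.

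Estradiol-only regions, 17779 in number (66.2%, 65.6 to 66.8), were mostly weak. Their median fold was 7.59, against 27.7 for shared estradiol regions, and their median pileup 17 against 68. A fold under 10 was found in 12715 of them (71.5%), 644 (3.62%) reached 20 and 61 (0.343%) reached 30. The share of estradiol regions that were in the LY500307 list was 9.92% at folds of 5 to 10, 20.1% at 10 to 15, 43.6% at 15 to 20, 74.7% at 20 to 30 and 95.4% at 30 to 40. It was 99.8% at 40 to 60, and all 1751 estradiol regions with a fold of at least 60 were shared. By pileup the share was 12.6% at 20 to 30 fragments and 89.7% at 60 to 80. Of estradiol-only regions, 1492 (8.39%) lay within 1 kb of an LY500307 region and 4605 (25.9%) within 10 kb, and the median distance was 41.1 kb. No share for random positions was computed, so whether they gather near LY500307 regions was not tested.

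Estradiol-only regions rarely overlapped vehicle regions, in 337 cases (1.90%) against 23.7% of shared regions. Of estradiol regions that did overlap a vehicle region, 86.5% were in the LY500307 list, compared with 28.4% of the others. Over all strengths, EREs were less frequent in estradiol-only than in shared regions, at 12.0% and 17.4%, and promoters more frequent, at 17.7% and 13.9%. Both orders were the other way round at folds of 5 to 10. There an ERE was in 10.4% of estradiol-only and 3.48% of shared regions, and a single arm in 39.8% and 16.5%. In that band 20.0% of estradiol-only and 32.1% of shared regions lay at promoters, and 2.36% and 31.4% overlapped vehicle regions. At folds of 20 to 30 the ERE shares were 22.3% and 21.4%, close together.

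**Figure D5:**
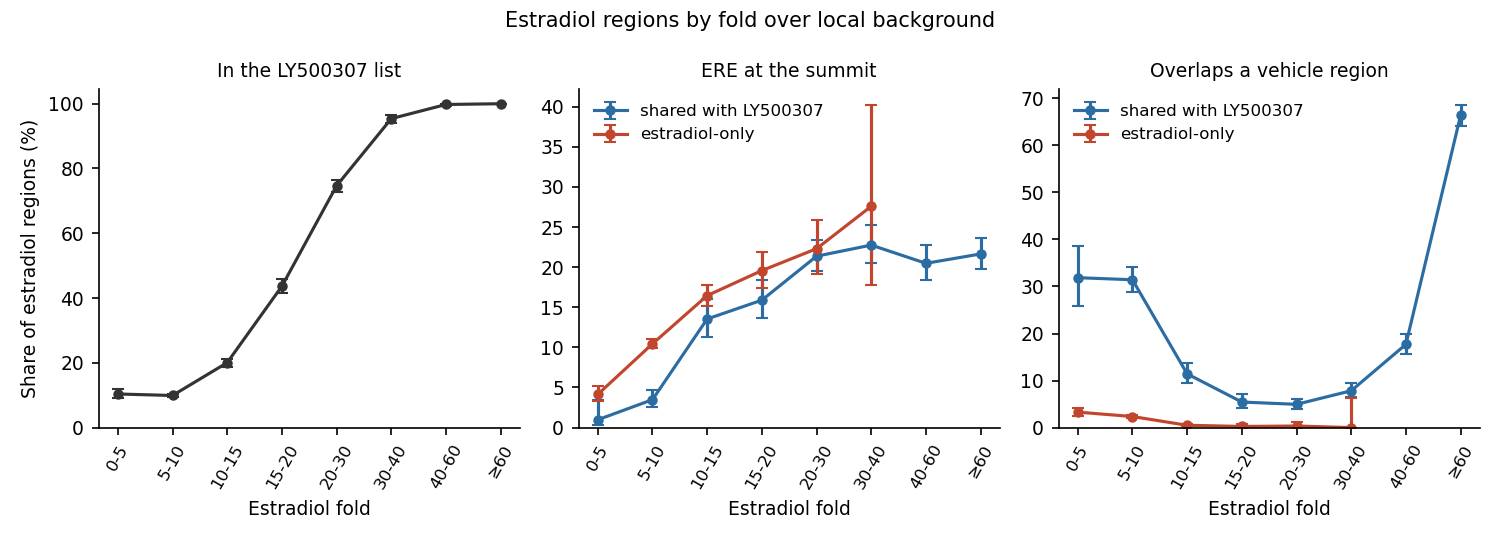
Share of estradiol regions in the LY500307 list (left), and share with an ERE (middle) or overlapping a vehicle region (right) among shared and estradiol-only regions, by estradiol fold; bars are 95% Wilson intervals and bands with under 20 regions are left out. Sharing climbs from 9.92% at folds of 5 to 10 to 99.8% at 40 to 60; weak shared regions have few EREs (3.48% at 5 to 10) and much vehicle overlap (31.4%).

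The 10 estradiol-only regions with the highest fold ran from 37.5 near GFI1, a transcriptional repressor gene, to 42.5 near PLB1, a phospholipase gene, with pileups of 74 to 94 fragments. None overlapped a vehicle region. The second highest, at 40.998, was nearest to ANKRD30A and 1770.0 kb from any LY500307 region. The site near VCAN, the matrix proteoglycan versican, had 39.7 and held an AP-1 element, and it lay 85.5 kb from an LY500307 region. Sites nearest to DUSP4, a MAP kinase phosphatase gene (240.64 kb away), in RGS9 and in FAT1, a protocadherin gene, had 39.4 to 40.5. They lay within 3 kb of an LY500307 region. EREs with 1 mismatch were in the coding exon of PCYT2, a phospholipid synthesis enzyme (fold 38.2, ggccagcatgacc), and in the intron of TMEM202 (fold 38.0). The site near ZSWIM6 had 38.5.

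Genes were assigned by a summit within 20 kb of a start. Of 19626 protein-coding genes, 455 (2.32%) had an estradiol-favoured pair, 419 (2.13%) an LY500307-favoured pair, 3377 (17.2%) a concordant pair, 5172 (26.4%) any pair, and 9180 (46.8%) an estradiol-only region. Functions were described by 17 lists of genes, 3 of them controls, with no set test.

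Of 26 estrogen response genes, 15 (57.7%) had a pair, against 26.4% of all genes. But 1 (3.85%, against 2.32%) had an estradiol-favoured pair and 1 (3.85%, against 2.13%) an LY500307-favoured one. IGFBP4, an IGF-binding protein, had the first (chr17:40460001-40460496), with folds of 32.1 and 5.39 and pileups of 70 and 22. KRT13 had the second only through the KRT36 promoter site 14.8 kb away. An estradiol-only region was near 13 genes (50%, against 46.8%). These included an ERE without mismatch at the promoter of NRIP1, the corepressor RIP140 (fold 15.6, ggtcactttgacc), and a 1-mismatch ERE near CTSD, the lysosomal protease cathepsin D (fold 19.5). MYC and SIAH2, a ubiquitin ligase, had estradiol-only regions at folds of 30.5 and 5.50 and no pair. The other estradiol-only members were TFF3, GREB1, IGFBP4, RARA, CCND1, CA12, KRT13, FKBP4 and IGF1R, with folds of 4.91 to 17.1.

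Of 40 genes of TGF-beta, activin and BMP signalling, 15 (37.5%, against 26.4% of all genes) had a pair. An estradiol-favoured one was near 2 (5%, against 2.32%) and an LY500307-favoured one near 0 (against 2.13%). FST, the activin antagonist follistatin, had an intronic site (chr5:53482396-53482789) with folds of 29.5 and 4.72 and pileups of 76 and 23. LTBP4, a binding protein of latent TGF-beta, had a site 19.0 kb away with 48.0 and 7.03, and 95 and 29. Both gaps, 48.5 and 43.2 points by fold, were 13.4 and 10.3 by pileup.

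Estradiol-only regions were near 24 of these 40 (60%, against 46.8% of all genes). With no pair beside it were 13 of the 40 (32.5%), close to the 29.0% of all genes. The 24 genes with an estradiol-only region, with or without a pair, included the ligands TGFB1 (fold 4.50), TGFB2 (7.62), INHBA (8.49), BMP4 (13.4) and GDF15 (8.93). Receptors with one were TGFBR1, TGFBR3, ACVR1, ACVR2A, BMPR1A and BMPR2, at folds of 5.81 to 8.04. Of the SMADs, SMAD3 (13.3), SMAD4 (6.50) and SMAD7 (18.3) had one, and SMAD7 counted as having no pair because its strong shared site lies 40.1 kb away. Inhibitors and regulators were SKI (19.0), SKIL (22.3), SMURF1 (8.04), SMURF2 (12.3), TGIF1 (6.45), FSTL3 (8.49) and NOG (9.31), and latent TGF-beta binding proteins were LTBP1 (8.49), LTBP2 (19.2) and LTBP3 (10.5). Except for the site at SKIL, the repressor SnoN, all of these had folds under 20.

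The other lists held few discordant sites. In the Hippo pathway 14 of 22 genes (63.6%, against 26.4% of all genes) had a pair. An LY500307-favoured one was near 4 (18.2%, against 2.13%), CCN1, WWC1, VGLL3 and STK3. CCN1, a YAP target encoding a matrix protein, had a site in an intron of DDAH1 with folds of 14.0 and 10.9 and pileups of 39 and 26. None of the 4 overlapped a vehicle region, and none kept a gap of 25 points by pileup but STK3. Of 29 receptor kinase and ligand genes, 3 (10.3%, against 2.13%) had LY500307-favoured sites, TGFA, PDGFA and PDGFB, with estradiol folds of 17.3 to 22.5 and LY500307 folds of 10.9 to 14.8. This TGFA site lies in an intron of the gene and is not the repeat site described above. Of 32 matrix genes, 1 (3.13%, against 2.32%), COL1A1, had an estradiol-favoured site with a 1-mismatch ERE (folds 20.1 and 5.02, pileups 46 and 11), and 3 (9.38%, against 2.13%), LAMB3, LOXL2 and MMP14, had LY500307-favoured ones.

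Of 22 cystatin and protease inhibitor genes, 16 (72.7%, against 26.4%) had a pair. CST4, 1 of the 22 (4.55%), had an estradiol-favoured site with folds of 67.8 and 10.3, and CST1 and CST6 (9.09%) had LY500307-favoured ones, at 21.0 and 14.2 and at 23.5 and 16.2. By pileup these 3 rank gaps were at most 5.17 points in either direction. PPARA, the fatty acid-sensing receptor, was the 1 member of 37 nuclear receptor and coregulator genes with a discordant site. It was estradiol-favoured, which is 2.70% of this list against 2.32% of all genes. This intronic site (chr22:46151523-46151973) had folds of 38.0 and 6.07, pileups of 75 and 15, the 1-mismatch ERE ggtcagcatgact, and a gap of 46.2 points by fold and 43.4 by pileup. LY500307-favoured sites were also near CDK1, 1 of 24 cell cycle genes (4.17%), and FOSL1 and FOSL2, 2 of 22 AP-1 and immediate early genes (9.09%). Others were near VIM, 1 of 26 mesenchymal transition and adhesion genes (3.85%), and PAPPA, 1 of 18 insulin and IGF genes (5.56%). The share of all genes was 2.13%. The lists of NF-kB and inflammation (24 genes), BCL2 family (22) and luminal lineage genes (16) had no discordant site. Of all genes, 2.32% had an estradiol-favoured and 2.13% an LY500307-favoured one, so lists this short can hold none.

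Of the control lists, the ribosomal one had as many discordant genes as several of the others, and the remaining 2 had none. Of 30 ribosomal protein genes, 12 (40%, against 26.4% of all genes) had a pair. An estradiol-favoured site was near 2 (6.67%, against 2.32%), RPL13 and RPS15. The RPL13 site in an intron of SPG7 held an ERE without mismatch (ggtcatcttgacc). Of 30 olfactory receptor genes 1 (3.33%) had a pair, and of 25 synaptic genes 5 (20%) did, none of them discordant. With 0 to 4 discordant genes in each list, no list is described as favoured by either ligand.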

How the data were processed

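Enriched regions of Flag ER-beta ChIP-seq were taken from 3 deposited lists, 1 per treatment, and coordinates are hg38. Tools listed in the submitters' processing notes are MACS2 2.1.1.20160309, Bowtie2 2.2.6 and DiffBind, without the step of each. The labels tie every ChIP library of a treatment to 1 list, so each was taken as a pool. The fold of a region is the authors' deposited ratio of pileup to local background. The deposited −log10 p and −log10 q are the authors' own, and the deposited summit is an offset from the region start. The lowest deposited −log10 q was 2.15 for estradiol and 2.11 for LY500307. Kept were 26861 of 26896 estradiol, 10045 of 10059 LY500307 and 2902 of 2911 ethanol regions.

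Pileup and background were recovered as the only whole-number pileup that gave both deposited fold and −log10 p under a Poisson tail, to within 0.002, after tests on simulated data. 17 estradiol regions had no unique solution and take no part in pileup values. Named are the 10 pairs with the largest rank gap in each direction, the 5 with the highest favoured fold, the 5 with the highest mean rank, the 10 strongest estradiol-only regions, and the estrogen response and TGF-beta genes with discordant or estradiol-only regions. Members of other lists were named after their values were seen. The members and gene lists were chosen with earlier results of these data known. Genes came from GENCODE 44. Computations used Python 3.11.15, pandas 2.3.3, scipy 1.17.1 and pysam 0.24.0. Single libraries were not analysed here. 1 of the sites that the naming rule picks is not reported here.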

Additional observations from a re-analysis of the deposited data

How the results depend on the processing

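Of 56 alternative values, 19 were counted as staying near the reported one and 37 as moved. Shares and differences stayed when within its interval, and counts when within 1.5 times it. Rank correlations have no interval. Those of 0.842 and 0.847 were counted as staying, and those of 0.829, 0.891 and 0.908 as moved. No difference in ERE, promoter or vehicle share between the classes changed sign, but which class held more pairs or genes did. LY500307-favoured pairs were the more numerous at 15 percentile points and by pileup, and more genes lay near them within 5 kb. The share of LY500307 regions that were shared was 77.5% with at least 50% of each region covered, 87.7% with summits within 200 bp, 92.7% with −log10 q of at least 5 and 95.8% with at least 10 in both lists. For estradiol regions the shares were 29.0%, 32.8% and, at a −log10 q of 10, 35.8%. The rank correlation was 0.891 ranked by −log10 q, 0.829 for pairs with −log10 q of at least 10, and 0.908 ranked by pileup, an alternative added after seeing the data. Estradiol-favoured and LY500307-favoured pairs numbered 1315 and 1341 at 15 percentile points, 161 and 95 at 40, 370 and 325 by −log10 q, and 239 and 298 by pileup.

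The ERE difference between the classes was 18.9 points by −log10 q, 23.2 at 40 percentile points, 23.8 by pileup, 1.31 with no mismatch and 31.2 with at most 2. The promoter difference was -1.35 points at 40 percentile points, with an interval that spans 0, and -16.8 for promoters of 2500 bp on both sides. The vehicle difference was -53.2 by −log10 q, -20.2 at 15 percentile points, -73.3 at 40 and -62.3 by pileup. Estradiol-only regions with −log10 q of at least 10 numbered 9749. Genes near estradiol-favoured pairs were 186 within 5 kb, 1653 within 100 kb and 271 by −log10 q. For LY500307-favoured pairs these counts were 234, 1282 and 251, and 14857 genes had an estradiol-only region within 100 kb. The cause of these moves was not tested beyond the change of limit, region or ranking itself. No paired analysis was possible because the lists are pools without replicate columns, and for the same reason no replicate could be left out. The unknown read depth of the pools limits every comparison of list length and fold.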

Other observations

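Vehicle overlap of the estradiol regions shared with LY500307 was high at both ends of the estradiol fold and low between them. It was 31.9% at folds under 5, 4.95% at 20 to 30 and 66.4% at 60 and over. EREs were in 0.980%, 21.4% and 21.6% of all shared regions in the same fold ranges.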
